A study of Homo sapiens with 12 samples.

Results

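Transcripts of MDA-MB-231 cells were compared after 24 h in mildly acidic medium, labelled pH 6.9, and after the same time in neutral medium, pH 7.4. The comparison used the 4 libraries of each of these media, 8 of the 12 libraries in the series, chosen by the pH on their labels. MDA-MB-231 cells are an established human line from a triple-negative breast cancer, and all libraries came from this single line, labelled wild type. Every flask was grown at pH 7.4 before the change of medium: 500000 cells were plated and left to reach 70 to 80% confluence, then rinsed and incubated in medium of the set pH, so the neutral libraries also went through a change of medium. The remaining 4 libraries, at pH 6.4, entered the statistical fit and are given beside the mild acid values where they bear on them. The sample labels give pH 6.9 for the intermediate medium and the protocol gives pH 6.7. The label's value is used here, and the sources used here do not settle which is right. Libraries are numbered as repeats 1 to 4, which does not state separate cultures, so the p-values measure only the spread between these samples.

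Solid tumours acidify the fluid around them, because lactate and protons leave the cells faster than blood removes them. Cancer cells keep their own interior close to neutral with sodium-proton exchangers, bicarbonate transporters and carbonic anhydrases. Supply of sterols and of amino acids is watched inside the cell by transcription programmes of their own: SREBP factors switch on the enzymes of cholesterol synthesis when sterol is short, and ATF4 switches on amino acid synthesis, transport and tRNA charging when translation is stressed.

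Reads were counted per gene and are given as CPM, counts brought to a common library size. Total counts ran from 21060767 to 47644714 at pH 7.4 and from 27018171 to 49803831 at pH 6.9. Detected genes numbered 17841 in repeat 1 of the neutral group and 21628 in repeat 2 of the acid group, against 23113 to 27384 in the other 6. Repeat 1 at pH 7.4 read 0 for 1729 of the tested genes, against 246 in the pH 6.9 library and 6 to 87 in the others of the 8. The first principal component of the 8 libraries, with 58.4% of the variance, placed it at -138.93 and the others between 10.92 and 25.63. Markers were read as CPM of all counts, before that scaling. Those of the line were abundant, with VIM between 1617 and 2003, CD44 between 666 and 875 and AXL between 745 and 1053, except that SPARC stayed between 1.29 and 4.24 and TWIST2 was at 0. Of the receptors that triple-negative cells lack, ESR1 was at or below 0.281 and PGR at 0, while ERBB2 transcript lay between 79.2 and 99.6. Of markers of other cell types, 6 of 7 for blood, 3 of 5 for endothelium, 2 of 6 for fibroblasts and 3 of 8 for luminal epithelium were under 1 CPM in all 8 libraries, and none of these markers was called. The summed fibroblast markers ran from 70.6 to 105 at pH 7.4 and from 54.1 to 78.0 at pH 6.9, and the summed luminal markers, mostly KRT19, from 277 to 368 and from 267 to 343. In bulk samples such as these, fewer cells of a kind and less RNA per cell cannot be told apart.

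At pH 6.9 transcripts of 9 cholesterol genes, of aldose reductase and of the chaperone HSPH1 fell, and those of 7 genes of the amino acid stress response, of the growth factor amphiregulin and of 4 mitotic regulators rose. A gene was called when edgeR's quasi-likelihood test gave a Benjamini-Hochberg adjusted p under 0.05 over the 17544 genes tested. These calls depended on the libraries kept. Without the 2 libraries with the fewest detected genes, 2 cholesterol genes and 1 stress gene were called, and neither amphiregulin nor any mitotic gene. In the fit without a block, 55 genes were higher and 72 lower at pH 6.9, 127 in all or 0.724% of the tested genes, 0.313% higher and 0.41% lower. Most changes were small: the median size over the called genes was 0.65 on the log2 scale, and 7 rises and 15 falls passed 2-fold. Protein-coding genes made up 118 of the 127. In each of the 127 the lowest library of the higher group lay above the highest of the other, a separation met by 1771 tested genes or 10.1%, 5.18% with pH 6.9 higher and 4.91% with pH 6.9 lower.

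**Figure D1:**
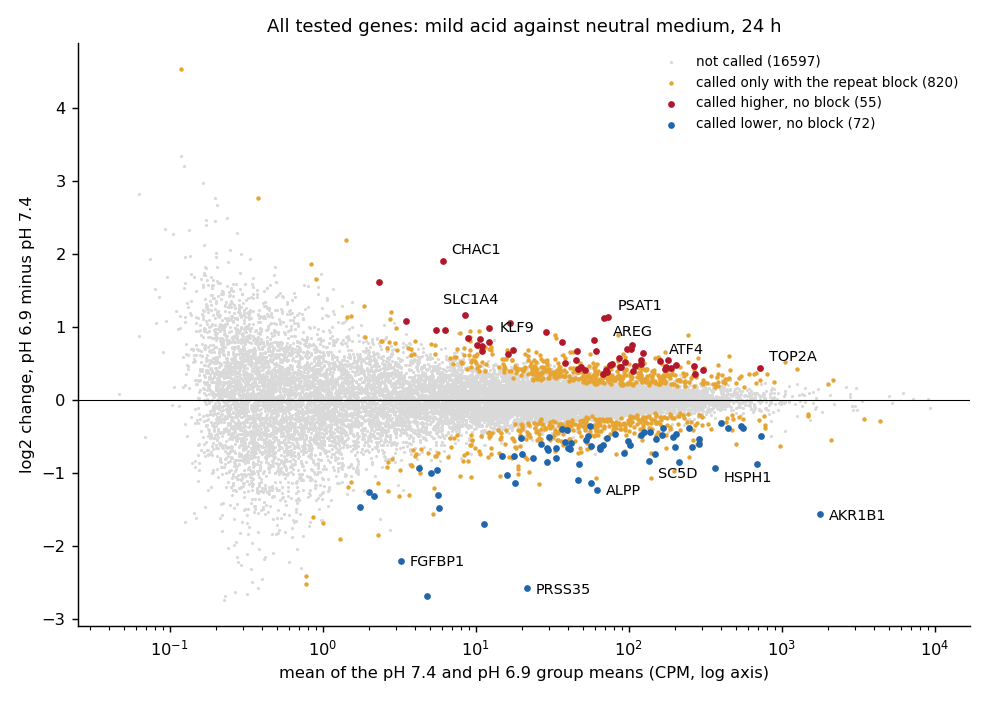
Log2 change from pH 7.4 to pH 6.9 of every tested gene (vertical axis) against the mean of both group means in CPM (horizontal log axis); red points rose and blue points fell in the fit without the block, orange points were called only with it. The called genes lie mostly above 5 CPM and within 1 log2 unit of 0, with PRSS35 and FGFBP1 among the largest falls and CHAC1 at 1.90.

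With the repeat number added to the model as a block, which removes what same-numbered libraries share, 519 genes were higher and 428 lower, or 5.4% of the tested genes (2.96% higher and 2.44% lower), and these 947 held all 127. Median log2 change over all tested genes was 0.01 without the block and 0.02 with it. Same-numbered libraries deviated from their group means with correlations of 0.0798, 0.160, 0.277 and 0.352 for repeats 1 to 4, and repeat 1 at pH 6.9 was closer to repeat 2 at pH 7.4, at 0.247, so the numbers do not pair the libraries by the threshold of 0.1 set for every pair. Both fits are therefore given side by side, the unblocked one first. The libraries did split by sets of repeats. Every correlation between the media within repeats 1 and 2, or within repeats 3 and 4, was positive, from 0.0798 to 0.352. Every correlation across these sets was negative, from -0.260 to -0.127. Deviations from a group mean cancel within each medium, so these negative values partly follow from the positive ones. The block takes up part of this split, whose source was not tested. Calls were fewer when a library was left out, between 40 genes without repeat 3 at pH 7.4 and 76 without repeat 2 at pH 7.4. Without repeat 1 at pH 7.4, the library with the fewest detected genes, 75 genes were called (0.427%). Without both libraries with few detected genes, 6 genes were higher and 11 lower (0.0969%), 15 of them among the 127. Genes named below beyond the largest changes and the leading members of each list, and every gene called only with the block, were picked after their values were seen. LPIN1, MTHFD2, MARS1, DUSP6, GRAMD1C, PCDH9, FAM117A and TNC overlap other genes on the opposite strand, and MCOLN1 and RRAGC on their own strand, so that reads could be shared there.

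Transcripts for cholesterol synthesis and uptake had lower estimates across nearly the whole list. The list held 25 genes, all tested, and 24 had a lower estimate at pH 6.9. Of these, 9 fell and none rose without the block, and 23 fell with it. In 22 members every pH 6.9 library lay below every pH 7.4 library, beside 4.91% of all tested genes. The median log2 change of the list was -0.65, beside 0.01 over all genes tested. PMVK, which phosphorylates mevalonate phosphate, had the one positive estimate, 0.01, and SREBF2, the gene for the sterol-sensing factor SREBP2, stood at -0.24.

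Enzymes at the end of the pathway fell clearly. SC5D, the desaturase that turns lathosterol into the substrate of DHCR7 (chr11:121292453-121308694 in the GENCODE 29 annotation of GRCh38, as for the positions below), read 188, 159, 186 and 160.2 CPM in repeats 1 to 4 at pH 7.4 and 95.7, 88.8, 108 and 94.5 at pH 6.9. Its log2 change was -0.84 (SE 0.10, adjusted p = 0.00141), with no overlap between media. DHCR7, which makes cholesterol from its direct precursor (chr11:71428193-71452868), read 189, 190.1, 192 and 174 CPM at pH 7.4 and 95.8, 119, 119 and 113 at pH 6.9. No acid library came near the neutral ones, with log2 change -0.74 (SE 0.11, adjusted p = 0.00512). MVK, the mevalonate kinase near the start of the pathway (chr12:109573255-109598117), read 54.1, 46.04, 55.2 and 48.1 CPM and then 30.1, 31.01, 35.7 and 30.6 CPM, a log2 change of -0.68 (SE 0.10, adjusted p = 0.00532). MVK overlaps MMAB on the other strand, and LSS, ACAT2 and FDFT1 overlap other genes there as well, so their values are uncertain unless the counting used strand.

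Falls without the block were also found for LSS at -0.65, ACAT2 at -0.53, HSD17B7 at -0.76, SQLE at -0.87 and FDFT1 at -0.64 on the log2 scale. HMGCS1, which makes the HMG-CoA that the pathway starts from, had the lowest estimate of the list, -0.97 (SE 0.23), and was called with the block (adjusted p = 0.000775) and not without it (adjusted p = 0.0724). It read 316, 297, 258 and 175 CPM at pH 7.4 and 169, 149.8, 131 and 85.1 CPM at pH 6.9, so that every acid library was below its neutral number by a like ratio while the neutral libraries differed widely. Called with the block alone were also IDI1 (-0.65), MSMO1 (-0.78) and INSIG1 (-0.55), a sterol-regulated brake on SREBP processing.

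Falls in this pathway were of like size within subsets of the libraries. The median of the list was -0.66 within repeats 1 and 2, -0.61 within repeats 3 and 4 and -0.64 without the 2 libraries with the fewest detected genes, where 2 members stayed called. Leaving out 1 library gave between 5 called members, without repeat 3 at pH 7.4 or repeat 4 at pH 6.9, and 10 without repeat 4 at pH 7.4. In stronger acid, pH 6.4, which was compared with the same pH 7.4 libraries, 20 members were lower and none higher (30.3% of all tested genes were called there, 15.6% higher and 14.7% lower), with a median of -0.74. MVK read 20.5, 20.8, 23.6 and 25.3 CPM at pH 6.4, below its pH 6.9 libraries, whereas SC5D with 102, 112, 82.2 and 107 CPM overlapped its own.

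Promoter sequences of the falling genes are shown because members that moved together can be compared in the stretch that starts transcription. RefSeq promoters (GRCh38.p14, 250 bases before to 50 after the gene start) were matched for 18 of the 25 members. The CCAAT box, bound by NF-Y, was searched as CCAAT on both strands and occurred in 15 of the 18, or 83.3%, against 35.7% of all 27305 promoters. An SRE-like motif, TCACNCCAC on both strands, occurred in 1 of the 18, SREBF2, and in 1.15% of all promoters. Only exact matches in this window were counted, so the other promoters may hold sites that differ from these letters. Capitals mark the CCAAT box (ATTGG on the other strand) in SC5D (chr11:121292521-121292820, plus strand) with 1 match and in MVK (chr12:109573544-109573843, plus strand) with 5.
SC5D: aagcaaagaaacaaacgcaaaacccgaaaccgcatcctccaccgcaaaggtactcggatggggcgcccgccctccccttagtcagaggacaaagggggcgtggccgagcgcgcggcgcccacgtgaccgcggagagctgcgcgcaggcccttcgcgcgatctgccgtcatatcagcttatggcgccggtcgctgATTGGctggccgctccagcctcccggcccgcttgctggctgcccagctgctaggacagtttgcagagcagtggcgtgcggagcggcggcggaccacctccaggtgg
MVK: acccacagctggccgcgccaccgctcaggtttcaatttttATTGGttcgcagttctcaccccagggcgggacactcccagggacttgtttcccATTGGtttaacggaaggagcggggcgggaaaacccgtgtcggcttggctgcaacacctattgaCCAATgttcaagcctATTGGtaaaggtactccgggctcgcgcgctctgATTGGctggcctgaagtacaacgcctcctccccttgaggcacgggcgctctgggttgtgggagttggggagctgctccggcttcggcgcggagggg

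Estimates for fatty acid synthesis leaned lower too. Of 20 listed genes 19 were tested, 2 fell without the block and 9 with it, none rose, and the median log2 change was -0.17. ME1, the malic enzyme that supplies NADPH for lipid synthesis (chr6:83210389-83431071), read 79.3, 81.2, 87.2 and 82.1 CPM at pH 7.4 and 54.97, 54.3, 56.4 and 49.3 CPM at pH 6.9. The media were fully separate for ME1, which is also counted among NRF2 targets, with log2 change -0.62 (SE 0.08, adjusted p = 0.0016). LPIN1, a phosphatidate phosphatase, fell by 0.44 on the log2 scale (adjusted p = 0.0279). FASN, the fatty acid synthase, had means of 603 ± 35.6 and 398 ± 50.4 CPM, and SCD, which makes oleate, 1189 ± 249 and 766 ± 124 CPM (SD, n = 4 each). Both had non-overlapping groups and passed with the block (adjusted p = 0.00669 and 0.00314) but not without it (0.0724 and 0.118). DGAT2, which builds triglycerides, had the highest estimate of the list, 0.48, and was not called. TMEM97, POR and CYB5B, 3 genes outside the list whose products act in sterol handling or feed electrons to sterol enzymes, were called lower at -0.65, -0.55 and -0.48, as was LIPA, the lysosomal lipase that frees cholesterol from its esters, at -0.48.

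Rises among genes of the response to amino acid shortage were led by CHAC1 and PSAT1. Of 32 listed genes 30 were tested, all but FGF21 and CBS, 7 rose and none fell without the block, and 17 rose and none fell with it. The median log2 change was 0.50. In 15 members all pH 6.9 libraries lay above all pH 7.4 libraries, beside 5.18% of all tested genes. ATF4, the transcription factor at the head of the response, changed modestly and evenly. Its transcript (chr22:39519695-39522685) read 126, 139, 127 and 132 CPM at pH 7.4 and 181, 206, 186 and 184 CPM at pH 6.9. The lowest acid library was well above the highest neutral one, with log2 change 0.54 (SE 0.08, adjusted p = 0.00532). Pseudogene copies of ATF4 exist, and the sources used here do not say how reads shared with them were counted.

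CHAC1, an enzyme that breaks down glutathione and a well-known ATF4 target (chr15:40952962-40956519), gave the largest rise among the named genes. It read 2.24, 2.87, 1.95 and 3.12 CPM at pH 7.4 and 7.66, 7.24, 9.56 and 13.95 CPM at pH 6.9. Every acid library was far above the highest neutral value, with log2 change 1.90 (SE 0.25, adjusted p = 0.00266). PSAT1, the aminotransferase of serine synthesis (chr9:78297143-78330093), read 51.4, 46.2, 41.8 and 44.7 CPM and then 79.3, 91.9, 93.4 and 141 CPM. Repeat 4 at pH 6.9 was the highest of these, and the log2 change was 1.14 (SE 0.19, adjusted p = 0.0109). PCK2, the mitochondrial enzyme that turns oxaloacetate into phosphoenolpyruvate (chr14:24094053-24110598), read 10.6, 12.96, 8.98 and 10.9 CPM and 20.96, 21.4, 20.3 and 27.8 CPM. It too was highest in repeat 4 of the acid group, and its log2 change was 1.06 (SE 0.18, adjusted p = 0.0133). SESN2, a leucine-sensing stress protein (chr1:28259527-28282491), rose by 0.83 (adjusted p = 0.0403), MTHFD2 of mitochondrial folate metabolism by 0.68 (adjusted p = 0.0213) and MARS1, which charges methionine tRNA, by 0.49 (adjusted p = 0.0493).

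Serine and glycine enzymes called with the block alone were PHGDH at 1.11, SHMT2 at 0.51 and PSPH at 0.56. ASNS, asparagine synthetase, was scarce, at 0.639, 0.248, 0.372 and 0.491 CPM against 1.53, 0.635, 1.37 and 2.001 CPM, with one acid library inside the neutral range, log2 change 1.65 and adjusted p of 0.0812 without and 0.0188 with the block. It overlaps an unnamed gene on the same strand, so its value is uncertain. ATF5, another factor of this response, had the lowest estimate of the list, -0.37, and was not called. The list of endoplasmic reticulum chaperones and unfolded protein response genes had no call among 23 genes without the block and a median of -0.04. Its members with most reads, HSP90B1 and CANX, stood at 0.20 and -0.21. Its one call with the block was XBP1, with means of 54.4 ± 1.77 and 69.7 ± 2.06 CPM and log2 change 0.36 (adjusted p = 0.0354).

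The number of called stress genes depended on the libraries kept. It was 5 without repeat 1 at pH 7.4, 2 without repeat 3 at pH 7.4, 3 without repeat 4 at pH 6.9 and 1, CHAC1, without the 2 libraries with the fewest detected genes, while the median stayed at 0.47 in that last setting. Within repeats 1 and 2 the median was 0.39 and within repeats 3 and 4 it was 0.60. At pH 6.4 against the same neutral libraries 22 members were higher and 1 lower, with a median of 0.76. Of all tested genes 15.6% were called higher there and 14.7% lower. CHAC1 read 7.19, 9.54, 12.1 and 13.05 CPM there and PSAT1 74.6, 67.6, 122 and 84.4 CPM, both within or close to their pH 6.9 range, whereas ASNS reached a mean of 3.96 ± 1.41 CPM.

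Enzymes that load amino acids onto tRNA were looked at after the stress genes had been seen to move. Of 20 cytosolic tRNA synthetases 4 rose without the block and 10 with it, none fell, and the median was 0.20. Leaving out 1 library left 3 called without repeat 3 at pH 6.9 and 2 in each of the other 7 cases, and 1 was left without the 2 libraries with the fewest detected genes, where the median was 0.22. MARS1 and several others of these enzymes are also in the stress list. Of 17 mitochondrial tRNA synthetases none was called in either fit, and the median was -0.08. CARS1, the cysteine enzyme (chr11:3000922-3057613), read 84.9, 77.99, 74.7 and 75.2 CPM at pH 7.4 and 119.9, 132, 134 and 139.7 CPM at pH 6.9. These groups were separate and even, with log2 change 0.75 (SE 0.09, adjusted p = 0.000951). YARS1, the tyrosine enzyme, had means of 74.2 ± 4.34 and 121 ± 16.7 CPM (SD, n = 4 each), log2 change 0.70 and adjusted p = 0.00532. IARS1 rose by 0.40 (adjusted p = 0.0253), and XPOT, which exports tRNA from the nucleus, by 0.54 (adjusted p = 0.0381). CARS1 and YARS1 overlap genes on the opposite strand.

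The composite element that ATF4 binds with C/EBP partners was searched in the promoters as TGATGNAA on both strands. It occurred in 6 of 16 cytosolic tRNA synthetases with a promoter in the table (37.5%), in 6 of 28 stress genes (21.4%) and in 3.67% of all promoters. CHAC1 (chr15:40953221-40953520, plus strand) and CARS1 (chr11:3057374-3057673, minus strand) are shown as the strongest riser of each list that holds a match, which is in capitals and lies on the other strand in both, as TTGCATCA.
CHAC1: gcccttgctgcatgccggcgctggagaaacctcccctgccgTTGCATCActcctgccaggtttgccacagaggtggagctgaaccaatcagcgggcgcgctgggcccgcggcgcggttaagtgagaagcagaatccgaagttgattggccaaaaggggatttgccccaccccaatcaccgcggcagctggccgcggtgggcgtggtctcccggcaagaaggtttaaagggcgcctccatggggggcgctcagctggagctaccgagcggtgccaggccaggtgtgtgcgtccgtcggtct
CARS1: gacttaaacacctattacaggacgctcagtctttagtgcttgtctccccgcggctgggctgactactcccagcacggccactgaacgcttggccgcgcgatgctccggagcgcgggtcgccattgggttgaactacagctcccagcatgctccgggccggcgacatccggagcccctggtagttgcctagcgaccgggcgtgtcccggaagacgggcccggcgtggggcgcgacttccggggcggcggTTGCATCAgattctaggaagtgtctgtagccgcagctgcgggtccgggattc

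Among 16 tested amino acid transporters of 17 listed, 1 rose without the block and 4 with it, with a median of 0.09. SLC1A4, which carries alanine, serine and cysteine (chr2:64988477-65023865), read 6.01, 6.06, 4.05 and 4.77 CPM at pH 7.4 and 10.7, 12.3, 9.88 and 14.1 CPM at pH 6.9. No library crossed over, and the log2 change was 1.16 (SE 0.16, adjusted p = 0.00339). SLC7A11, the cystine importer that feeds glutathione synthesis, read 38.9, 56.05, 67.1 and 78.7 CPM and then 83.04, 95.3, 117 and 149 CPM, higher by a similar factor in each repeat number. Its log2 change of 0.89 passed with the block (adjusted p = 0.000807) and not without it (adjusted p = 0.0651). SLC38A2, a glutamine and alanine carrier, had the lowest estimate, -0.49 (adjusted p = 0.131).

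**Figure D2:**
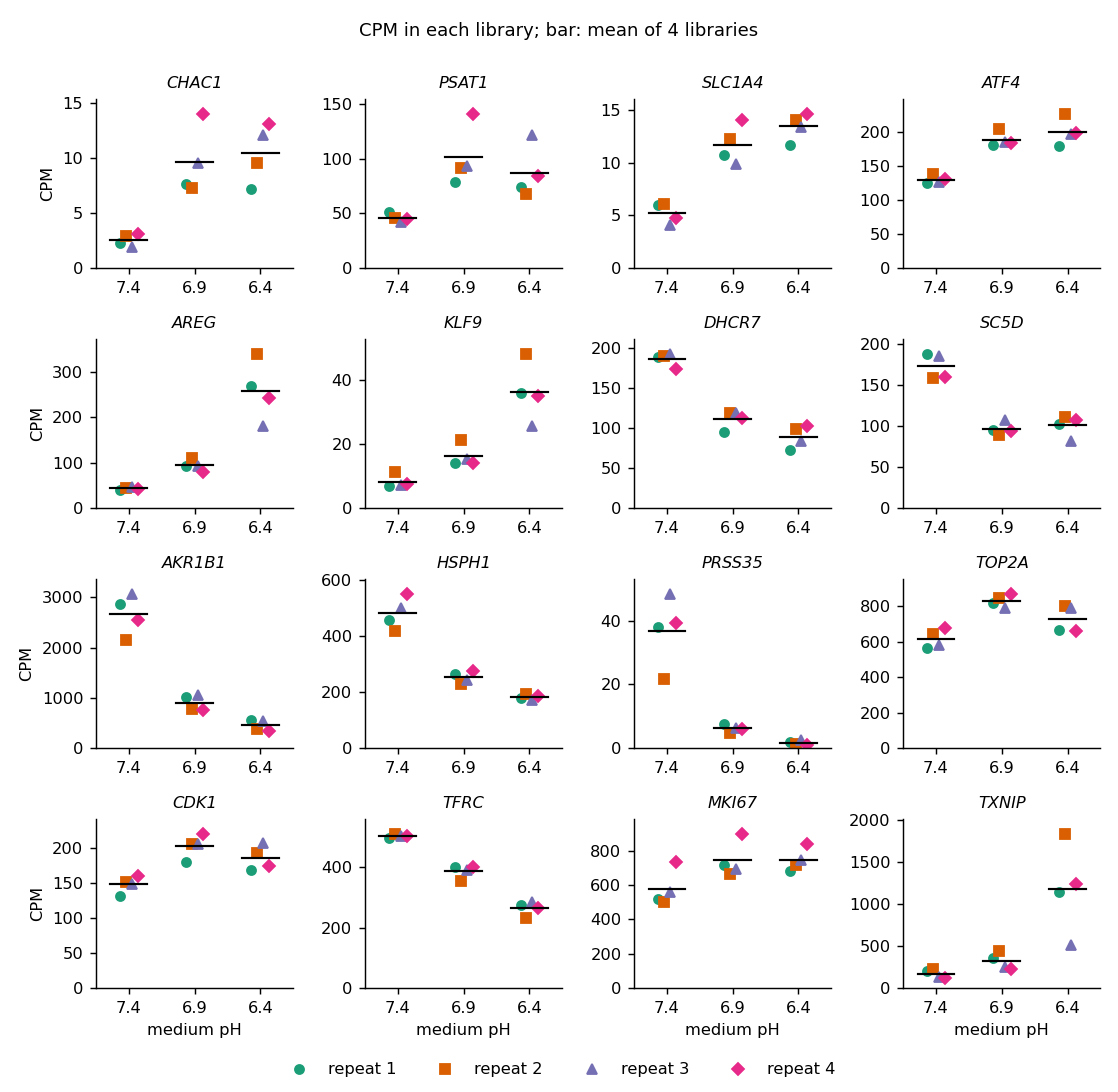
CPM of 16 genes in every library, by medium pH on the horizontal axis, with symbols for repeats 1 to 4 and a bar at the mean of 4 libraries. The pH 6.9 libraries lie apart from the pH 7.4 libraries in the first 14 panels, and overlap them for MKI67 and TXNIP.

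AKR1B1 had the largest fall of its list of osmolyte, water and volume genes. Aldose reductase, its product, makes the osmolyte sorbitol from glucose. The transcript (chr7:134442350-134459284) read 2879.8, 2150.1, 3063 and 2554 CPM at pH 7.4 and 1025, 769, 1047 and 764 CPM at pH 6.9. Repeat 2 was the lowest neutral library and still far above every acid one, with log2 change -1.56 (SE 0.17, adjusted p = 0.000923). It read 554, 382, 531.7 and 349 CPM at pH 6.4. Pseudogene copies of AKR1B1 exist, so a share of its reads may be counted elsewhere. SLC5A3, the importer of the osmolyte myo-inositol, fell by 0.87 (adjusted p = 0.0416) from a mean of 889.7 ± 51.7 to 486 ± 97.97 CPM, a call kept in 1 of 8 cases with a library left out. It overlaps MRPS6 on the same strand, which was called with it at -0.85, so these values are not separate measurements. SLC6A12, the betaine importer, and AQP3, a water and glycerol channel, were called lower with the block alone, at -1.32 and -0.80. Of 27 tested genes in this list the other 23 were not called in either fit, and the median was -0.02.

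Estimates for cytosolic chaperones leaned lower. Of 22 tested heat shock and chaperonin genes 20 had a negative estimate, 2 fell without the block and 6 with it, none rose, and the median was -0.18. HSPH1, a partner of HSP70 that exchanges its nucleotide (chr13:31134974-31162388), read 454, 416, 499.7 and 547 CPM at pH 7.4 and 263, 228, 241 and 274 CPM at pH 6.9. The highest acid library lay far below the lowest neutral one, with log2 change -0.93 (SE 0.09, adjusted p = 0.000923). DNAJA1, a co-chaperone with pseudogene copies, fell by 0.31 (adjusted p = 0.0483), a call lost with any 1 of the 8 libraries. HSPA8, the constitutive HSP70, read 2407, 2467, 2459 and 2641 CPM and 1778, 1768, 1593 and 1673 CPM. These groups did not overlap, the log2 change was -0.55, and the gene was called with the block (adjusted p = 0.0155) and not without it (adjusted p = 0.0937). HSF1, the factor that drives this list, and DNAJB1, its early target, had the 2 positive estimates, 0.03 and 0.01. HSPA1A, HSPB8 and HSPA4 were called lower with the block alone, at -0.48, -0.78 and -0.34. HSPA1B stood at -0.53 and was not called.

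Estimates for mitotic genes leaned higher by small amounts. Of 41 genes, all tested, 40 had a positive estimate, 4 rose without the block and 21 with it, and none fell. The median log2 change was 0.28, and 14 members had all acid libraries above all neutral ones, beside 5.18% of all tested genes. CDK1, the kinase that drives entry into mitosis (chr10:60778331-60794852), read 132, 152, 149.6 and 161 CPM at pH 7.4 and 181, 207, 206 and 220.2 CPM at pH 6.9. Neutral and acid values were close but separate, with log2 change 0.45 (SE 0.09, adjusted p = 0.0371). TOP2A, the topoisomerase that untangles sister chromosomes (chr17:40388516-40417950), read 564, 645, 579 and 677 CPM and 819.6, 847, 790.3 and 868 CPM. Its log2 change was 0.43 (SE 0.09, adjusted p = 0.0408). CCNB2, a mitotic cyclin, rose by 0.41 (adjusted p = 0.0328) and BIRC5, or survivin, of the chromosomal passenger complex, by 0.40 (adjusted p = 0.0277).

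Outside the list, called genes with a part in mitosis or chromosome structure were CIT, a kinase of cytokinesis, at 0.70, CKAP2L at 0.52, HMGB2 at 0.48, the spindle protein ASPM at 0.46, and the condensin subunits NCAPD3 at 0.43 and NCAPG2 at 0.36. MKI67, the proliferation marker, read 519, 503, 558 and 736 CPM and 719, 665, 695 and 897 CPM, with 1 neutral library, repeat 4, above 3 of the acid ones, and was called with the block only (log2 change 0.36, adjusted p = 0.00404). CDC20, an activator of the anaphase-promoting complex, was the 1 member without a positive estimate. Genes of DNA replication and the G1/S step had no call among 43 without the block and 1 with it, RFC4 at 0.40. Their median was 0.19, and 16 of the 43 had all acid libraries higher, beside 5.18% of all tested genes. CCND1 and MCM3, with most reads in that list, stood at -0.03 and 0.23. CDK2, the kinase of the G1/S step, which is in neither list, was called at 0.45 (adjusted p = 0.0113).

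Calls among the mitotic genes depended on single libraries. None stayed called without repeat 1, 2 or 3 at pH 7.4 or repeat 2, 3 or 4 at pH 6.9, 1 stayed without repeat 1 at pH 6.9, and 4 were called without repeat 4 at pH 7.4. The median was 0.27 within repeats 1 and 2, 0.27 within repeats 3 and 4, and 0.26 without the 2 libraries with the fewest detected genes. Against the same neutral libraries, pH 6.4 gave 24 higher and 1 lower mitotic gene with a median of 0.34. Replication genes at pH 6.4 counted 1 higher and 24 lower, with a median of -0.43. Among all tested genes 15.6% were called higher at pH 6.4 and 14.7% lower.

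Promoters of mitotic genes often carry the cell cycle homology region, CHR, searched as TTTGAA on both strands, with CCAAT boxes nearby. A CHR match occurred in 21 of the 34 members with a promoter in the table (61.8%) and in 15.4% of all promoters, and a CCAAT box in 28 of 34 (82.4%). CCNB2 (chr15:59104896-59105195, plus strand) and CDK1 (chr10:60778081-60778380, plus strand), both called, are shown with both motifs in capitals, which share no bases in either.
CCNB2: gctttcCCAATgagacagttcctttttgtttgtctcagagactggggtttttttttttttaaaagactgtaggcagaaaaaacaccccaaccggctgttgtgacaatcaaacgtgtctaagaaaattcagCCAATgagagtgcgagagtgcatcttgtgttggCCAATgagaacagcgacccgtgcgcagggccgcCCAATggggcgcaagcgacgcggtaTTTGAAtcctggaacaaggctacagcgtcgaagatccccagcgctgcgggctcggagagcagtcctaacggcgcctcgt
CDK1: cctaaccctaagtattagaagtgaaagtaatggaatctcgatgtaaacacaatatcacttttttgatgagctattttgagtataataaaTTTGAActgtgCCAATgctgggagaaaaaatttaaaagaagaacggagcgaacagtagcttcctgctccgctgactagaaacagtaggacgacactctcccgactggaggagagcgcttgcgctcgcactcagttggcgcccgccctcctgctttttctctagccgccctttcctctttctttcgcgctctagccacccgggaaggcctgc

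Immediate early and ERK response genes had mostly positive estimates, with few calls without the block. Of 31 genes 24 had a positive estimate, 2 rose without the block, and 7 rose and 1 fell with it. The median was 0.25, or 0.11 without repeat 1 at pH 7.4 and 0.11 without the 2 libraries with the fewest detected genes. At pH 6.4 against the same neutral libraries 15 members were higher and 2 lower, beside 15.6% and 14.7% of all tested genes. AREG, amphiregulin, a ligand of the EGF receptor (chr4:74445134-74455009), read 39.4, 44.3, 46.1 and 42.9 CPM at pH 7.4 and 92.1, 111, 92.5 and 80.4 CPM at pH 6.9. The lowest acid library was far above the highest neutral one, with log2 change 1.12 (SE 0.15, adjusted p = 0.00339). AREG read 269.8, 339, 181 and 242 CPM at pH 6.4, above every pH 6.9 library. DUSP6, a phosphatase that ERK induces and that inactivates ERK in turn, rose by 0.44 (adjusted p = 0.0371), a call kept in 1 of 8 cases with a library left out. FOSL1 and PHLDA1, both ERK targets, were called with the block at 0.46 and 0.41, and IER5 was called lower at -0.25. FOS and EGR1, both classic immediate early genes, gave -0.51 and 0.82 with adjusted p of 0.536 and 0.283.

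KLF9, a transcription factor induced by glucocorticoids and cycling with the clock (chr9:70384597-70414624), was the 1 gene called without the block among 19 tested in its list. It read 6.88, 11.2, 7.17 and 7.49 CPM at pH 7.4 and 14.2, 21.2, 15.4 and 14.1 CPM at pH 6.9. Repeat 2 was the highest in each medium, and the log2 change was 0.98 (SE 0.21, adjusted p = 0.0435). Leaving out a library kept it called in 1 of 8 cases. FKBP5 of the same list was called higher with the block alone, at 0.26. Of the 19 genes 13 had a positive and 6 a negative estimate, and the median was 0.21. All acid libraries were higher in 5 of them and lower in 1, beside 5.18% and 4.91% of all tested genes. TXNIP, a glucose-responsive inhibitor of glucose uptake, read 207, 231, 134 and 116 CPM at pH 7.4 and 360.4, 437, 256 and 221 CPM at pH 6.9, higher within each repeat number but with overlap between the media. It was not called without the block (log2 change 0.89, SE 0.32, adjusted p = 0.259) and was called with it (adjusted p = 0.021).

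The 2 largest falls among the named genes lay outside these pathways. PRSS35, which encodes a serine protease-like protein (chr6:83512538-83525704), read 38.1, 21.6, 48.3 and 39.3 CPM at pH 7.4 and 7.62, 4.58, 6.42 and 6.08 CPM at pH 6.9. Even the lowest neutral library, repeat 2, was far above all acid ones, with log2 change -2.57 (SE 0.28, adjusted p = 0.000923). At pH 6.4 it read 1.85, 1.34, 2.64 and 0.856 CPM. FGFBP1, a carrier that frees fibroblast growth factors from the matrix (chr4:15935569-15938740), read 6.76, 5.69, 4.75 and 4.04 CPM and then 1.37, 0.873, 1.55 and 0.842 CPM. Its log2 change was -2.20 (SE 0.26, adjusted p = 0.00135). LINC00882, a long non-coding RNA that the naming rule leaves out, had the lowest estimate of all called genes, -2.68 (SE 0.30), from a mean of 8.29 ± 2.41 to 1.28 ± 0.306 CPM.

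ESR2, which encodes estrogen receptor beta and overlaps an unnamed gene on its strand, read 9.17, 6.49, 10.2 and 8.25 CPM at pH 7.4 and 3.48, 2.58, 2.81 and 3.34 CPM at pH 6.9, so that the media were separate (log2 change -1.48, SE 0.22, adjusted p = 0.00532). ALPP, placental alkaline phosphatase, whose paralog ALPG is nearly identical, read 76.4, 89.5, 101 and 79.7 CPM and 32.1, 35.00, 46.7 and 34.4 CPM, a log2 change of -1.23 (SE 0.18, adjusted p = 0.00532). Both falls stayed called whichever library was left out. RELN, the secreted glycoprotein reelin, fell by 1.30, MAP2, a microtubule-binding protein, by 1.14, and TNFSF9, the ligand of the costimulatory receptor 4-1BB, by 1.02 on the log2 scale. SLC2A6, a hexose transporter, fell by 1.09 (adjusted p = 0.0408), a call lost with any 1 of the 8 libraries. THBS1-IT1, annotated as a transcript inside an intron of THBS1 on the same strand, fell by 1.13 (adjusted p = 0.00339), while THBS1 itself had means of 1855 ± 86.1 and 2149 ± 122 CPM (log2 change 0.21) and was called, as higher, with the block alone. The protocadherin PCDH9 and FAM117A completed the 12 named falls at -0.99 and -0.96, and both stayed called in all 8 cases with a library left out.

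Several rises lay outside the lists. G0S2, which blocks the main triglyceride lipase of lipid droplets (chr1:209675420-209676388), read 47.9, 42.4, 40.03 and 40.4 CPM at pH 7.4 and 78.9, 85.96, 56.7 and 79.8 CPM at pH 6.9. All acid libraries were higher, with log2 change 0.82 (SE 0.11, adjusted p = 0.00339). GJB2, the gap junction protein connexin 26 (chr13:20187463-20193010), read 8.45, 8.70, 9.17 and 9.43 CPM and 16.4, 15.00, 15.1 and 15.3 CPM. The spread within each medium was small, and the log2 change was 0.79 (SE 0.10, adjusted p = 0.00224). GRAMD1C, of a family that moves cholesterol from the plasma membrane to the endoplasmic reticulum, rose by 0.96 (adjusted p = 0.0156). LUCAT1, a long non-coding RNA, rose by 0.93 (adjusted p = 0.0416) and HOXB9, a homeobox factor, by 0.84 (adjusted p = 0.0483), and both of these calls were lost with any 1 of the 8 libraries. ADAM8, a cell surface metalloprotease, was called at 0.54 with very even libraries: 94.9, 104, 97.8 and 96.02 CPM at pH 7.4 and 139.8, 145, 145 and 142 CPM at pH 6.9.

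Estimates for lysosomal genes leaned lower. Of 47 lysosome and autophagy genes 3 fell without the block, 10 fell and 1 rose with it, and the median was -0.12. MCOLN1, the lysosomal calcium channel (chr19:7522626-7534009), read 42.6, 31.9, 35.7 and 35.3 CPM at pH 7.4 and 21.2, 18.2, 26.4 and 24.6 CPM at pH 6.9, with log2 change -0.69 (SE 0.14, adjusted p = 0.0403). NEU1, a lysosomal sialidase, fell by 0.62 (adjusted p = 0.0349) and RRAGC, a GTPase that relays amino acid supply to mTORC1, by 0.40 (adjusted p = 0.0435). None of these 3 calls was left without repeat 1, 2 or 3 at pH 7.4 or repeat 2 or 4 at pH 6.9. ULK1, the kinase that starts autophagy, was the 1 rise with the block, at 0.35. TFRC, the transferrin receptor for iron uptake, read 497, 509, 503 and 502 CPM in the neutral libraries, a very narrow range, and 402, 356, 391 and 400.2 CPM in the acid ones. It fell by 0.38 (SE 0.08, adjusted p = 0.0376) and was not called when any 1 library was left out. This was the 1 call without the block among 13 tested genes of metallothioneins and metal transport, of which 2 were called lower with it. SLC40A1, the iron exporter, had the highest estimate of these, 0.52, and the median of -0.10 was 0.002 without the 2 libraries with the fewest detected genes.

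Matrix genes moved in both directions with the block. Of 42 tested, 2 fell without the block, 10 rose and 5 fell with it, and the median was 0.10. Without repeat 1 at pH 7.4 both called falls were lost and 2 members were called higher, without repeat 2 at pH 6.9 none was called, and none was called without both. TNC, the matrix protein tenascin C (chr9:115019578-115118257), read 247, 226, 214 and 230.3 CPM at pH 7.4 and 180.4, 162, 135 and 166 CPM at pH 6.9, a log2 change of -0.51 (SE 0.09, adjusted p = 0.0148). SERPINE2, an inhibitor of thrombin and plasminogen activators, fell by 0.66 (adjusted p = 0.0381). Called higher with the block alone were the laminin chains LAMA3 (0.63), LAMA4 (0.98) and LAMB1 (0.30), the collagens COL6A3, COL13A1 and COL4A2 (0.58, 0.57 and 0.33), and FN1, fibronectin. FN1 shows what the block does: it read 959, 1138, 639.7 and 719 CPM at pH 7.4 and 1342, 1645, 942 and 1022 CPM at pH 6.9, so that the media overlapped while each acid library stood above its neutral number, and its adjusted p was 0.343 without and 0.000771 with the block. TGFBR3, a co-receptor for TGF-beta, read 86.2, 64.3, 83.6 and 85.1 CPM and 47.2, 48.6, 49.2 and 56.3 CPM. It fell by 0.66 (SE 0.10, adjusted p = 0.00532), the 1 call without the block of 27 genes in the TGF-beta list. SMAD3 was called higher and BMP4 lower with the block alone, at 0.34 and -0.41. TGFBI, a secreted TGF-beta target, was higher by 0.65 with the block (adjusted p = 0.0014) and not called without it. Among 23 tested genes of epithelial-mesenchymal transition none was called without the block, and with it SNAI2, KRT8, KRT18 and S100A4 were lower at -0.34, -0.38, -0.25 and -0.27 and AXL higher at 0.24. VIM, with most reads in that list, stood at 0.15.

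Genes that move acid across membranes held no call without the block. Of 28 acid-base transporters and carbonic anhydrases 23 were tested, 3 rose and 1 fell with the block, and the median was 0.04. The 2 with most reads, BSG and the lactate exporter SLC16A3, stood at -0.05 and 0.11. CA9, the carbonic anhydrase on the outer face of hypoxic tumour cells, read 7.95, 5.64, 6.004 and 5.51 CPM and 11.9, 9.94, 15.8 and 10.6 CPM, with no overlap, a log2 change of 0.94 (SE 0.25) and adjusted p of 0.114 without and 0.017 with the block. CA12, its relative, was similar, with means of 7.93 ± 1.72 and 13.2 ± 1.83 CPM and adjusted p of 0.11 and 0.0434. SLC9A7, an exchanger of the Golgi, was called higher with the block (0.48) and SLC4A11, of the bicarbonate transporter family, lower (-0.36). Only 6 of 13 proton sensors and acid-gated channels passed the filter on low counts, and those with most reads, ASIC1 and PACC1, stood at -0.43 and 0.08.

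Several processes held no call without the block. Glycolysis (22 genes), hypoxia targets outside it (24), the nuclear-encoded respiratory chain (42), mitochondrially encoded mRNAs (13) and cytosolic ribosomal proteins (54) had medians of 0.04, 0.08, -0.03, 0.06 and 0.04. Their members with most reads gave these log2 changes: ENO1 -0.02 and PKM -0.26 for glycolysis, HIF1A -0.21 for hypoxia, ATP5F1B 0.00 and ATP5F1A -0.02 for the respiratory chain, MT-CO1 0.01 and MT-ND4 0.01, and RPS18 0.15 and RPS4X -0.06. PKM, the last enzyme of glycolysis, was called lower with the block (adjusted p = 0.00559). Of the hypoxia targets EPAS1 and ADM were called lower with it, at -0.39 and -0.36, and ERO1A higher, at 0.25. MT-CYB of the mitochondrially encoded mRNAs was called higher with it, at 0.28. Ribosome biogenesis genes leaned lower, with 28 of 32 estimates negative and a median of -0.12, but none was called without the block and 1, BYSL at -0.26, with it. NCL and NPM1, the abundant nucleolar proteins of that list, stood at -0.13 and 0.01. Actin and motility (38 genes), adhesion (35), YAP and TEAD targets (29), NF-kB and cytokine genes (31), interferon response (40), growth arrest (22), cell death (24), fatty acid oxidation (26), MondoA genes (9) and prostaglandin genes (11) had medians between -0.08 and 0.08. Of their members with most reads, FLNA and MYH9 of the actin system stood at -0.06 and 0.07, ITGB1 and CAV1 of adhesion at 0.16 and -0.21, and CCN1 and MYOF of the YAP list at 0.10 and -0.05. The cytokine CSF1 and the NF-kB regulator TNIP1 stood at -0.26 and 0.10. With the block 5 of the NF-kB and cytokine genes were called higher, IL1A (2.76), CXCL2 (0.63), BIRC3 (0.50), RELB (0.46) and NFKBIZ (0.32), and NFKBIA (-0.49) and CSF1 lower. IL1A was scarce, at 0, 0.0827, 0.186 and 0.134 CPM against 1.15, 0.635, 0.361 and 0.474 CPM. IFIT1 and IFIT3 of the interferon list stood at -0.40 and -0.29, and KLF6 and CCNG1 of growth arrest at 0.05 and 0.07. Of the 22 growth arrest genes, GADD45A (0.51), CCNG2 (0.44) and CDKN2D (0.36) were called higher with the block and CDKN1C (-0.50) lower. The survival genes MCL1 and BCL2L1 gave 0.19 and 0.10, ACADVL and PLIN3 of fat use 0.18 and 0.13, PFKFB3 of the MondoA list -0.21, and PTGES3 and PTGR1 of the prostaglandin list 0.13 and 0.21. With the block, 5 of the 29 genes of the YAP list were called higher and none lower, beside 2.96% of all tested genes called higher. CCN2 and NT5E were among the 5, at 0.48 and 0.36. PPARGC1A, a coactivator of mitochondrial genes, was lower with the block at -1.06, and ETFDH of the same list higher at 0.45. In the actin list FSCN1 was called lower with the block (-0.56), and ANLN and DIAPH3 higher (0.35 and 0.32). ISG15 of the interferon list was lower with it (-0.31), as were 3 adhesion genes. Cell death and the MondoA list had 2 genes each called higher with it. HPGD, which degrades prostaglandins, read 7.78, 5.29, 9.36 and 9.05 CPM at pH 7.4 and 2.43, 1.19, 4.29 and 2.84 CPM at pH 6.9, non-overlapping, with log2 change -1.56 (SE 0.44) and adjusted p of 0.13 without and 0.00349 with the block. A p above the threshold does not show that these values were alike in both media.

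**Figure D3:**
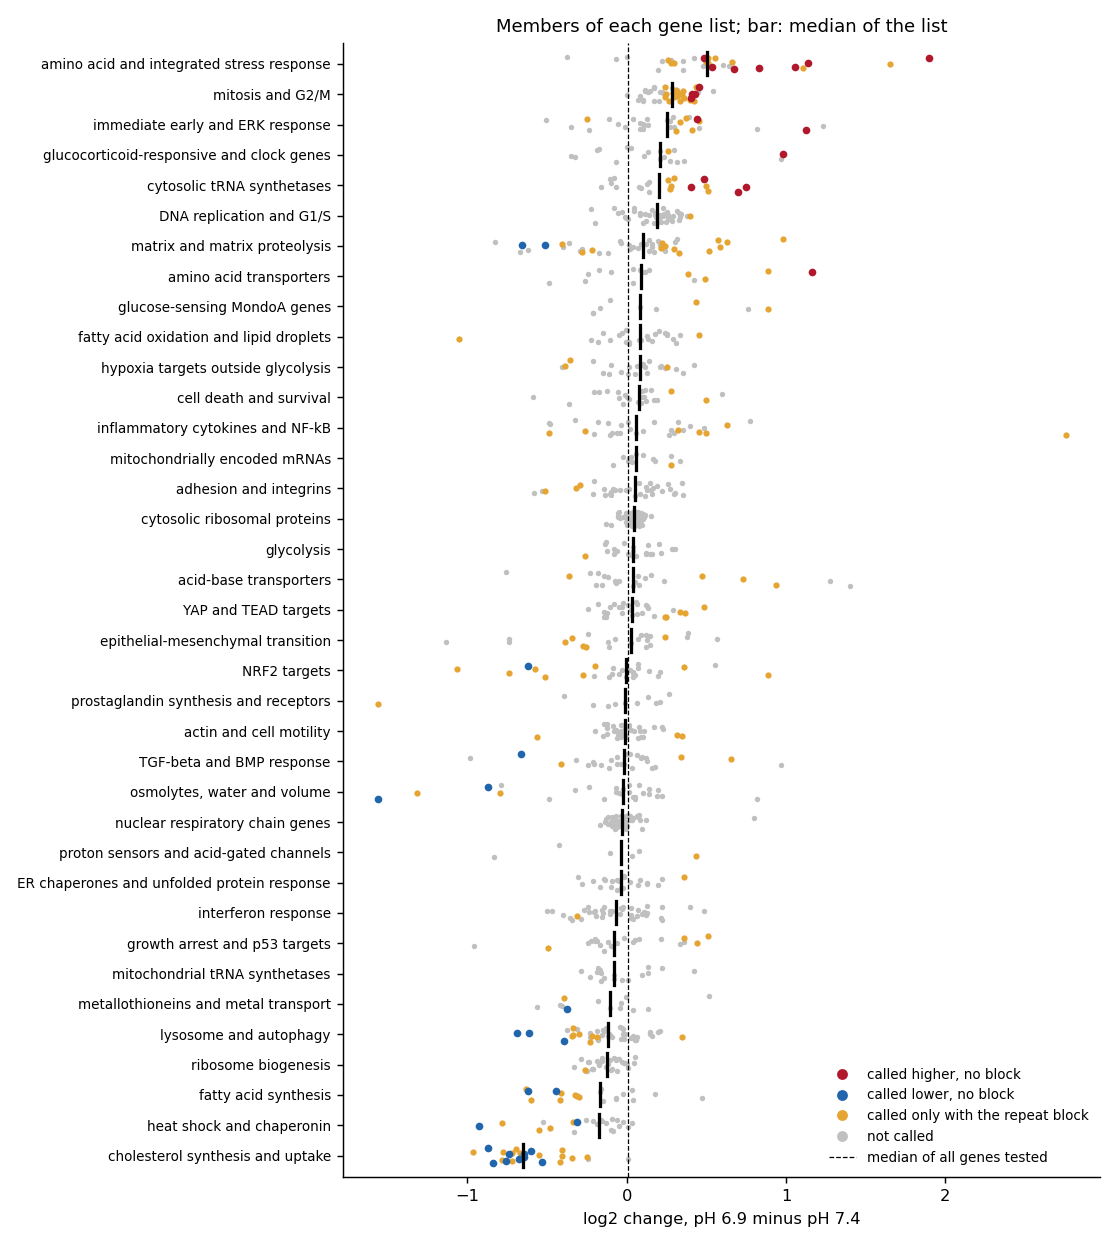
Log2 change from pH 7.4 to pH 6.9 (horizontal axis) of every tested member of 37 gene lists (rows), with a bar at the median of each list and a dashed line at the median of all tested genes; colours give the calls. Cholesterol synthesis sits lowest, at a median of -0.65, and the amino acid stress list highest, at 0.50, while most other lists centre near the dashed line.

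NRF2 targets split with the block. Besides ME1, none of the 27 was called without it, and with it 7 were lower and 2 higher. AKR1C1, a ketosteroid reductase with near-identical relatives that can share its reads, read 258, 149, 199 and 152 CPM at pH 7.4 and 128, 80.6, 88.3 and 64.4 CPM at pH 6.9. The log2 change was -1.07, with adjusted p of 0.0508 without and 2.5e-05 with the block. TXNRD1, thioredoxin reductase, and SLC7A11 were the 2 higher members, at 0.36 and 0.89, and HMOX1, heme oxygenase, was lower at -0.52.

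**Figure D4:**
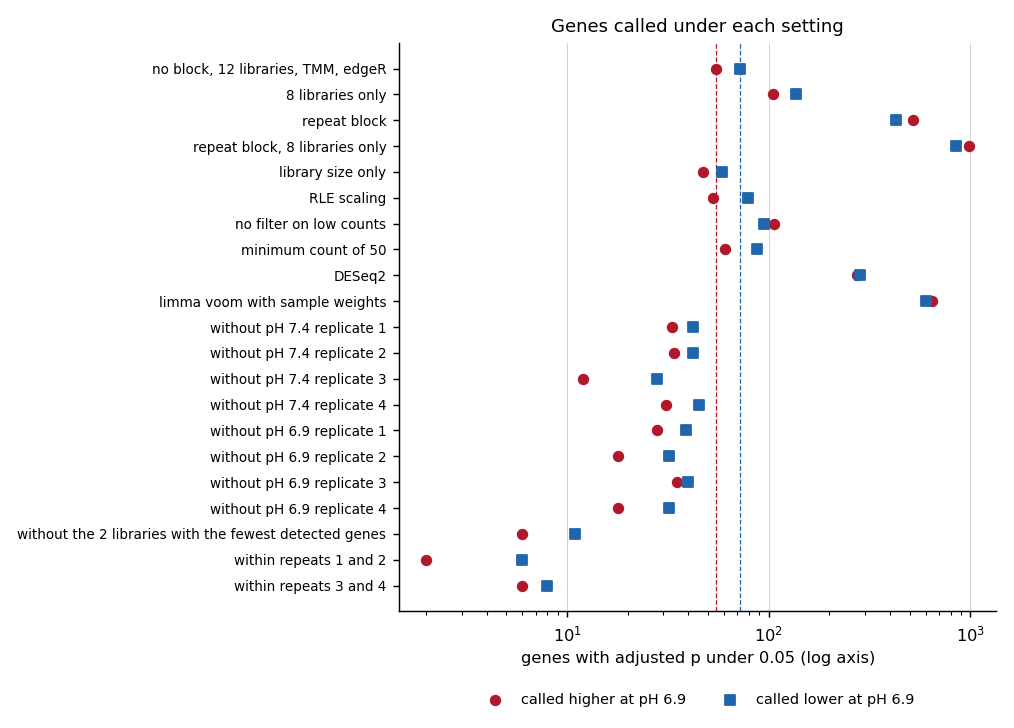
Number of genes called at adjusted p under 0.05 (horizontal log axis) higher (red circles) or lower (blue squares) at pH 6.9 under each way of fitting; dashed lines mark the 55 and 72 of the fit without the block. Counts run from 2 and 6 within repeats 1 and 2 to 988 and 846 with the repeat block in the 8 libraries alone.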

How the data were processed

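The samples were 12 poly(A) RNA libraries of 1 cell line, 4 per medium, from a stranded kit and a NextSeq500 run, per the labels' protocols. The deposited values are counts of reads per gene, made by the authors with STAR and featureCounts on GRCh38.p13 (hg38), per the submitters' processing notes. Versions, strandedness of counting and handling of multi-mapped reads were not given in the sources used here. In all, the table held 60664 genes, of which 60463 had a symbol and 58396 a position in GENCODE 29.

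Counts were filtered with filterByExpr (minimum count 10), which kept 17544 genes, scaled by TMM and tested with edgeR 4.0.16 in R 4.3.3. The robust quasi-likelihood fit had 1 term per medium over all 12 libraries, which share one estimate of the spread (9 residual degrees of freedom), and the contrast was pH 6.9 minus pH 7.4. P-values were adjusted over all tested genes by the Benjamini-Hochberg method, with a threshold of 0.05. A second fit added the repeat number as a block (6 residual degrees of freedom). Alternatives used DESeq2 1.42.0, limma 3.58.1 (voom with sample weights), other scalings, filters and subsets of the libraries. The test scripts were tried on simulated counts. Pairing was checked from the correlations of deviations from the group means, and no library repeated another: any pair of the 12 differed in at least 22391 genes.

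Named genes were the 12 largest rises and the 12 largest falls of called genes whose higher group averaged 5 CPM or more, whose symbol is official and of no clone or LINC type, and whose groups did not overlap; up to 4 called members per gene list by adjusted p, or the 2 members of highest mean CPM where none was called; and the cell type markers. Some genes that this rule names are not reported here. The comparison, the gene lists and the rule were chosen with earlier results of these data known, and the tRNA synthetase lists after the values were seen. Promoters are from RefSeq (GRCh38.p14). The precision of each value is limited by 4 libraries per medium and, for genes of few reads, by depth.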

Additional observations from a re-analysis of the deposited data

Results flagged for a closer look

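Among 220 groups of 4 libraries looked at, from named genes and library totals in each medium, 12 held a highest or lowest library whose gap to the nearest other, as a share of the group's range, passed Dixon's critical value for 4 samples. Chance gives about 1 in 20 groups. Values are CPM. In the neutral libraries, repeat 1 stood apart for PFKFB3 at 131 (others 107.9 to 109.5) and SPARC at 4.15 (others 1.69 to 1.78). Repeat 2 did so for CCNG1 at 120.8 (others 96.9 to 100.2), KLF9 at 11.2 (others 6.88 to 7.49) and, on the low side, TGFBR3 at 64.3 (others 83.6 to 86.2). Repeat 3 was high for SLC2A6 at 70.9 (others 60.5 to 60.7) and low for FLNA at 2062 (others 2274 to 2296). In the acid libraries, repeat 3 was low for ERBB2 at 82.2 (others 87.4 to 88.2) and high for MVK at 35.7 (others 30.1 to 31.0). Repeat 4 was high for PCK2 at 27.8 (others 20.3 to 21.4), PTGES3 at 335 (others 310.1 to 312) and SERPINE2 at 30.3 (others 24.3 to 24.7). Of these genes KLF9, MVK, PCK2, SERPINE2, SLC2A6 and TGFBR3 were called, and their acid and neutral libraries did not overlap.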

How the results depend on the processing

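The genes higher and lower at pH 6.9, 55 and 72 as reported, were 105 and 136 in the 8 libraries alone, where the spread was estimated without pH 6.4, and 519 and 428 with the repeat block, or 988 and 846 with both. DESeq2 gave 275 and 284, limma voom with sample weights 648 and 603, and no filter on low counts 106 and 95. Leaving out 1 library gave 12 to 35 higher and 28 to 45 lower, of which 40 to 71 were among the 127. Without the 2 libraries with the fewest detected genes 6 and 11 were left, within repeats 1 and 2 they were 2 and 6, and within repeats 3 and 4 they were 6 and 8, all fits of fewer samples. Higher genes made up 43.3% of the calls as reported, 54.8% with the block, 52.7% without the filter and 30.0% without repeat 3 at pH 7.4. None of the 127 called genes reversed its direction. The repeat numbers meet no pairing rule, so a call found only with the block rests on numbers that may not link the libraries, and repeats 2, 3 and 4 at pH 6.9, but not repeat 1, correlated best with their own number. Genes of few reads are limited by depth. Repeat 1 at pH 7.4 had 1729 tested genes at 0 and 33746080 counts in all. Repeat 3 had 21060767 counts at pH 7.4 and 27018171 at pH 6.9. Of the genes at 0 in repeat 1 at pH 7.4, 341 had 10 or more counts in every other library. The cause was not tested.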

Other observations

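Of the 127 called genes 90 were in none of the 35 gene lists that stand beside the tRNA synthetases, and those given here were picked after their values were seen. SEMA3C, a secreted guidance cue, fell by 0.54 on the log2 scale (edgeR adjusted p = 0.00141), BAMBI, a decoy receptor of the TGF-beta family, by 0.77 (adjusted p = 0.00532) and LLGL2, a polarity protein, by 0.80 (adjusted p = 0.00339). CD82, a tetraspanin, rose by 0.46, and ATP1B1, a subunit of the sodium pump, fell by 0.36. NADK2, the mitochondrial NAD kinase, fell by 0.73 (adjusted p = 0.00339), ARG2, the mitochondrial arginase, by 0.57 and PFKFB2, which sets the level of a glycolytic activator, by 0.52.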
